A study of Mus musculus with 18 samples.

Results

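The 9 genes described here encode enzymes that make heme or break it down, and they were taken by name from a table of 16545 mouse genes. Alas1, Alad, Uros, Urod, Cpox, Ppox and Fech belong to the synthesis of heme, and Hmox1 and Hmox2 are the heme oxygenases. All 9 were found in the table and all 9 were above 0 in every library, so none was lost to the filter on genes at 0. The data were 18 RNA-seq libraries of splenic B cells on C57BL/6 background, 3 each from control mice (CON, 3 mice) and from mice lacking Zbtb24 in B cells (Zbtb24 B-CKO, 3 mice), at D0, D1 and D2 of culture with lipopolysaccharide (LPS), a bacterial activator of B cells. The study asked what the loss of the zinc finger protein ZBTB24 changes in activated B cells. B-CKO mice carried 1 allele of a B cell-specific Cre and loxP sites on both Zbtb24 alleles around exon 2. By the study's methods, controls were littermates with the same Cre and intact Zbtb24 alleles unless stated otherwise, so that the Cre allele is shared by both groups as described. Cre thus acts in the B cell lineage. Each library came from 1 mouse. Cells were splenic B cells sorted after lysis of erythrocytes. Age and sex of these mice are not given in the sources used here.

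Heme is an iron-bearing porphyrin that serves as the cofactor of cytochromes, catalase and several oxidases. Its synthesis starts in the mitochondrion with 5-aminolevulinate synthase, the regulated first step, runs through the cytosol, and returns to the mitochondrion for its last steps. The heme oxygenases open the ring and release biliverdin, carbon monoxide and iron. Heme is also a signal in B cells, because it binds and inactivates the repressors BACH1 and BACH2, and BACH2 restrains PC (plasma cell) differentiation.

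Values are FPKM, in which the fragments of a gene are scaled to its transcript length and to the library's total, which allows levels to be compared between genes. Changes are differences of the mean log2(FPKM + 1) between groups of 3 libraries, tested with limma and adjusted by the Benjamini-Hochberg method over all genes tested, with an adjusted p under 0.05 as the threshold. On this scale the change of genes at low FPKM is understated. In bulk RNA, fewer cells expressing a gene and less RNA per cell cannot be told apart.

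The summed FPKM of 8 B cell markers lay between 4440 and 16300 across the libraries. The highest sums were 33.2 for 9 T cell markers (CON D0), 19.2 for 11 macrophage markers (CON D0) and 71.7 for 9 erythroid markers (B-CKO D0). The targeted gene Zbtb24 was lower in each B-CKO library than in every CON library of the same day, at 0.275 of the CON mean at D0, 0.62 at D1 and 0.686 at D2. Its adjusted p in limma was 0.12, 0.0586 and 0.267. D0 libraries spread more widely than the others. The lowest correlation between replicates of a group was 0.9862 at D0 and 0.9973 at D1 or D2, and the median SD of the 9 heme genes within CON was 0.257 at D0 against 0.0668 at D1 on the log2 scale. At D0 the deviations of same-numbered CON and B-CKO libraries from their group means correlated at 0.468 to 0.854. In 43 of 89 genes near 0, the values were whole multiples of a step shared by the libraries, within 15%. These genes, 6 to 22 per library, put the relative depth at 0.91 to 0.92 at D0 and at 1.02 to 1.07 later. Because only genes that fitted a shared step were kept, this estimate could miss a larger difference in depth.

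In pathway order, Alas1 (gene ID 11655, 5-aminolevulinate synthase) lies at chr9:106233455-106247954 of GRCm38 and Alad (17025, which joins 2 aminolevulinates into porphobilinogen) at chr4:62505984-62520063. Uros (22276, which closes the porphyrinogen ring) lies at chr7:133686142-133710467 and Urod (22275, which removes carboxyl groups from uroporphyrinogen) at chr4:116989965-116994436. Cpox (12892, coproporphyrinogen oxidase) lies at chr16:58670208-58680391 and Ppox (19044, protoporphyrinogen oxidase) at chr1:171276991-171281193. Fech (14151) is the ferrochelatase that inserts iron. Hmox1 (15368, the inducible heme oxygenase) lies at chr8:75093618-75100593 and Hmox2 (15369, the constitutive one) at chr16:4726361-4766742. Exons of Hmox2 overlap those of Cdip1 on the opposite strand over 892 bases, 40.2% of its annotated exon sequence. Ppox overlaps B4galt3 over 791 bases (17.5%), Cpox overlaps Gpr15 over 204 bases (3.06%) and Alas1 overlaps an antisense RNA over 465 bases (7.53%), also on opposite strands. Whether the reads were counted by strand is not given in the sources used here, so reads within these overlaps may be shared.

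RefSeq promoter windows on GRCm38.p6, from 250 bases before to 50 bases after a transcript start, were found for 7 of the 9 genes. They numbered 12, since some genes had more than 1. Windows of Alas1, Alad and Cpox are printed because these genes rose together at D1, and that of Ppox because it moved the other way. Alas1 and Alad each had a further window that is not printed. Capitals mark matches on either strand to CACGTG (E-box), CGCANGCG (core of the NRF1 site), TGACG (core of the cyclic AMP response element) and CCAAT (bound by NF-Y), and no 2 matches overlap in the windows shown. The Alas1 window is chr9:106247905-106248204 (minus strand), that of Alad chr4:62520014-62520313 (minus), that of Cpox chr16:58669958-58670257 (plus) and that of Ppox chr1:171281137-171281436 (minus).
Alas1: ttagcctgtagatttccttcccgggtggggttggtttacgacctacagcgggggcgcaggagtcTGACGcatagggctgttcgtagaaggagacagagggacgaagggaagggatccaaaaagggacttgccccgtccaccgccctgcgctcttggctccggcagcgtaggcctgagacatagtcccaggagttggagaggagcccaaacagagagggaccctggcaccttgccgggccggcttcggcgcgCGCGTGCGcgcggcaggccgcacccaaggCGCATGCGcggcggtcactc
Alad: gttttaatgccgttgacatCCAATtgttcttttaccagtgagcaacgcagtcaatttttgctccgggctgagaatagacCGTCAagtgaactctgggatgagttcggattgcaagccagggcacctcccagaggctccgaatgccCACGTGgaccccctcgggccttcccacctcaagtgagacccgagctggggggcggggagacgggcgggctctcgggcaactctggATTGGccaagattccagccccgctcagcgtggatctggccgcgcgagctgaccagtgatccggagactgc
Cpox: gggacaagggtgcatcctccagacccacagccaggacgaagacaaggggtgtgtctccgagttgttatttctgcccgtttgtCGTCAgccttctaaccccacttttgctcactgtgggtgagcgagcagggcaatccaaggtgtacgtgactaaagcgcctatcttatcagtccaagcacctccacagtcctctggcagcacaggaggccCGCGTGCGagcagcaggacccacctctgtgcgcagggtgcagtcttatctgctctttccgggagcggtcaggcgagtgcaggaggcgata
Ppox: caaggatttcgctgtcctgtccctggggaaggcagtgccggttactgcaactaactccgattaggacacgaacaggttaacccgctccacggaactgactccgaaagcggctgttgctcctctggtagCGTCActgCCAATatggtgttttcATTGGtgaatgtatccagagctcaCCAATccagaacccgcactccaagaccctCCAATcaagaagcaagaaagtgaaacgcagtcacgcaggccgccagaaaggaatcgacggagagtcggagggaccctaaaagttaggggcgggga

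NRF1 controls many nuclear genes of mitochondrial proteins. Its core was present in windows of Alas1, Cpox and Uros, against 16% of 13151 genes with a window, and in Alas1 it occurred at 2 positions. The E-box, bound by MYC and USF factors, was present in Alad, Urod and Uros, against 10.5% of genes. TGACG was found in Alas1, Alad, Uros, Cpox and Ppox (31.4% of genes). Ppox held 4 CCAAT matches, and Alad and Urod held CCAAT as well (42.4% of genes). None of the 3 Hmox2 windows held any of these 4 motifs. The genes that rose and those that fell shared motifs: Uros, which fell, held both the E-box and the NRF1 core. Both lay in 1 of its windows, and the other Uros window held none of these 4 motifs. A gene was counted as holding a motif when any of its windows did. Such matches describe sequence only.

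At D0 the 9 genes spanned a mean of 1.63 FPKM for Hmox1 to 32.2 FPKM for Hmox2 in CON. Hmox2 and Ppox (27.2 FPKM) came first and overlapped, followed by Urod (17.4), Uros (10.9) and Cpox (10.8), of which the last pair overlapped. Fech (7.33), Alas1 (6.58) and Alad (5.27) came next, each overlapping its neighbour, and Hmox1 was last and apart. At D1 the order in CON was Hmox2 (61.4), Cpox (32.3), Urod (20.6), Ppox (17.3), Alas1 (16.1), Alad (10.5), Uros (8.09), Fech (7.72) and Hmox1 (2.72), and of the 8 neighbouring pairs only Uros and Fech overlapped. At D2, Alas1 (14.1) had passed Ppox, and Uros (5.12) had fallen to a range that overlapped that of Hmox1 (4.12). Within the synthesis pathway the highest enzyme in CON was Ppox at D0 and Cpox at D1 and D2, and the highest lay 5.16-, 4.18- and 5.73-fold above the lowest on the 3 days.

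**Figure D1:**
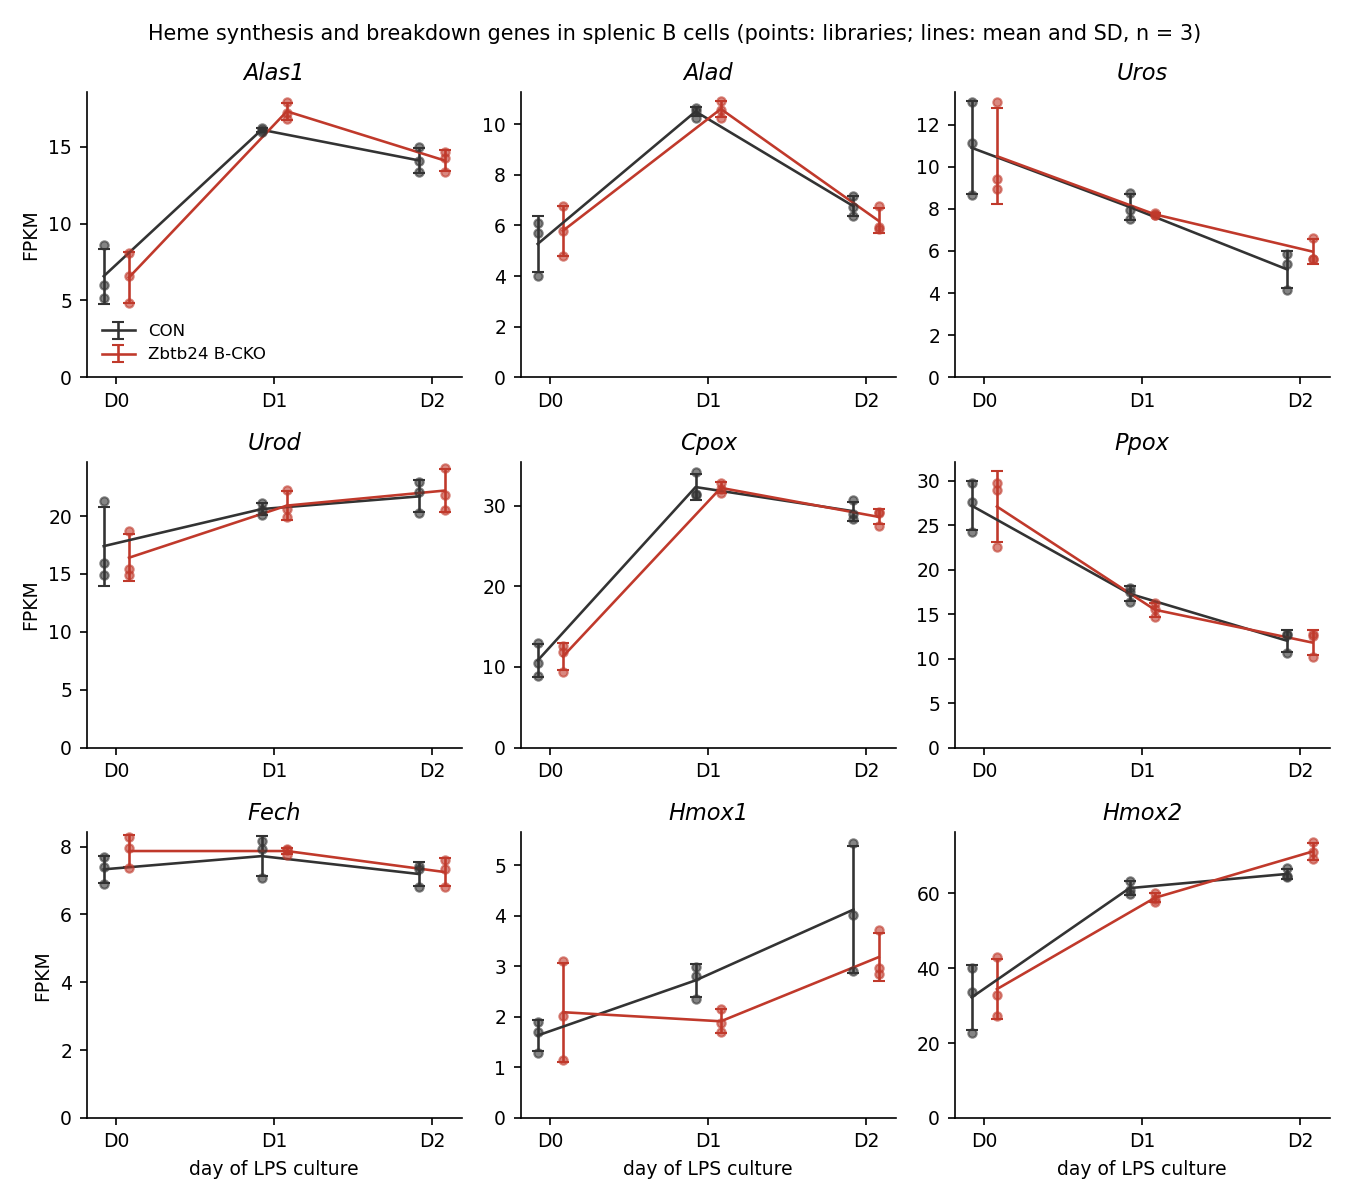
FPKM (y axis, linear, from 0) of each of the 9 genes against the day of LPS culture, with 1 point per library, and lines and bars for the mean and SD of 3 libraries in CON (dark) and Zbtb24 B-CKO (red). Alas1, Alad, Cpox and Hmox2 climb between D0 and D1, Ppox and Uros descend through D2, Fech stays between 6.80 and 8.29 FPKM in all 18 libraries, and Hmox1 never exceeds 5.43 FPKM.

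Over the first day of LPS, 3 synthesis enzymes and both heme oxygenases rose in CON while Ppox fell. Of all 15531 genes tested, 26.7% rose and 30.7% fell in this comparison, beside 5 and 1 of the 9 heme genes. The median log2 change of the 9 was 0.50, against -0.02 for all genes tested.

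Alas1, the entry step, stood at 8.61, 5.98 and 5.16 FPKM in the CON libraries at D0 and at 15.95, 16.07 and 16.24 FPKM at D1. The groups did not overlap, and the 3 D1 libraries were nearly equal. The difference was 1.20 ± 0.17 (log2, SE; adjusted p = 0.00114 in limma), and the D1 value was 1.85- to 3.15-fold the D0 value of the same-numbered mouse. In B-CKO, Alas1 went from 8.12, 4.81 and 6.56 FPKM to 16.79, 17.90 and 17.20 FPKM, again without overlap, a difference of 1.31 ± 0.16 (adjusted p = 0.000579).

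Alad rose as well. Its CON libraries read 6.09, 5.71 and 4.02 FPKM at D0 and 10.26, 10.52 and 10.64 FPKM at D1 (difference 0.89 ± 0.15, adjusted p = 0.0023 in limma). All D1 libraries lay above all D0 libraries. The B-CKO libraries read 6.77, 5.79 and 4.81 FPKM at D0 and 10.25, 10.55 and 10.90 FPKM at D1 (0.78 ± 0.12, adjusted p = 0.00154).

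Cpox, which makes protoporphyrinogen from coproporphyrinogen, rose the most among the 9 on the log2 scale. Its CON libraries went from 13.02, 10.46 and 8.93 FPKM to 31.44, 31.37 and 34.11 FPKM. Every library at D1 was at least 2.41-fold above its same-numbered D0 library, and the difference was 1.51 ± 0.13 (adjusted p = 0.000148 in limma). In B-CKO the values were 12.55, 11.88 and 9.34 FPKM at D0 and 32.10, 32.86 and 31.51 FPKM at D1 (1.45 ± 0.11, adjusted p = 5.96e-05).

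Ppox, the enzyme that follows Cpox in the pathway, fell. CON libraries read 29.74, 24.25 and 27.65 FPKM at D0 and 17.46, 16.32 and 17.99 FPKM at D1, with no overlap (difference -0.62 ± 0.09, adjusted p = 0.00131 in limma). B-CKO libraries read 28.97, 22.58 and 29.77 FPKM and then 16.29, 15.57 and 14.72 FPKM (-0.76 ± 0.11, adjusted p = 0.00136). Cpox mRNA was thus below Ppox mRNA at D0 and above it at D1 in every library. B4galt3, which shares exon sequence with Ppox on the other strand, had means of 27.6 FPKM at D0, 14.3 at D1 and 11.4 at D2 in CON, a course like that of Ppox, and how far shared reads enter either value was not tested.

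Uros, Urod and Fech were the enzymes whose D1 values did not pass the test in CON. Uros stood at 13.05, 11.11 and 8.66 FPKM at D0 and at 8.76, 7.97 and 7.54 FPKM at D1, so that the ranges overlapped by a single D0 library (difference -0.38 ± 0.15, adjusted p = 0.0736 in limma). The adjusted p of Uros was 0.0491 with the mouse as a block, 0.0161 after rescaling each library to the same total (TPM) and 0.00846 without CON D0 library 3. In B-CKO, Uros had an adjusted p of 0.0605 for a difference of -0.38 ± 0.14, with 13.09, 8.95 and 9.40 FPKM at D0 and 7.72, 7.79 and 7.72 FPKM at D1. Without B-CKO D0 library 1 or 2 its adjusted p was 0.026 or 0.0411, and after rescaling to TPM it was 0.0135.

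Urod read 21.28, 14.95 and 15.95 FPKM in CON at D0 and 20.56, 20.06 and 21.09 FPKM at D1. The first D0 library lay above every D1 library, and the difference was 0.25 ± 0.13 (adjusted p = 0.162 in limma). Without that library it was 0.39 (adjusted p = 0.0027). In B-CKO, where D0 read 18.68, 14.94 and 15.44 FPKM and D1 read 19.88, 20.57 and 22.29 FPKM, Urod rose by 0.34 ± 0.10 (adjusted p = 0.0231). That call was lost with the mouse as a block (0.0545), after rescaling to TPM (0.134) and without D0 library 2 (0.0667) or 3 (0.0642) or D1 library 2 (0.0655) or 3 (0.0871).

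Fech, the last step, at chr18:64456542-64489098, was level. Its CON libraries read 6.91, 7.69 and 7.39 FPKM at D0, 7.92, 7.07 and 8.18 FPKM at D1 and 6.80, 7.35 and 7.43 FPKM at D2. The 95% interval of its change from D0 to D1 ran from -0.16 to 0.29 on the log2 scale in CON (adjusted p = 0.577 in limma) and from -0.19 to 0.19 in B-CKO, so a doubling lay outside both. The sign of this small difference turned negative after rescaling to TPM (-0.09 in CON and -0.16 in B-CKO).

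Hmox2, the more abundant heme oxygenase on every day, rose in both genotypes. CON libraries read 40.07, 33.74 and 22.73 FPKM at D0 and 59.77, 63.43 and 60.87 FPKM at D1 (difference 0.95 ± 0.19, adjusted p = 0.00628 in limma), and B-CKO libraries read 43.03, 32.94 and 27.12 FPKM and then 58.52, 57.78 and 60.18 FPKM (0.78 ± 0.16, adjusted p = 0.00492). No D0 library reached any D1 library. Without the libraries numbered 2, which leaves 2 per group, the adjusted p was 0.0766 in CON and 0.0753 in B-CKO. Cdip1, whose exons overlap those of Hmox2, went the other way, from a mean of 17.0 to 11.9 FPKM in CON.

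Hmox1 had the lowest mean of the 9 genes on every day. CON libraries read 1.70, 1.29 and 1.90 FPKM at D0 and 2.99, 2.35 and 2.81 FPKM at D1, which did not overlap (difference 0.50 ± 0.13, adjusted p = 0.014 in limma). Without CON D1 library 1 or 3 the adjusted p was 0.0541 or 0.0514. In B-CKO the values were 1.15, 2.02 and 3.11 FPKM at D0 and 1.69, 2.16 and 1.88 FPKM at D1, all within the D0 range (-0.04 ± 0.23, adjusted p = 0.889). In B-CKO at D1, 5 members were called higher (Alas1, Alad, Urod, Cpox and Hmox2) and 1 lower (Ppox), beside 27.5% and 32.3% of 15551 genes tested.

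**Figure D2:**
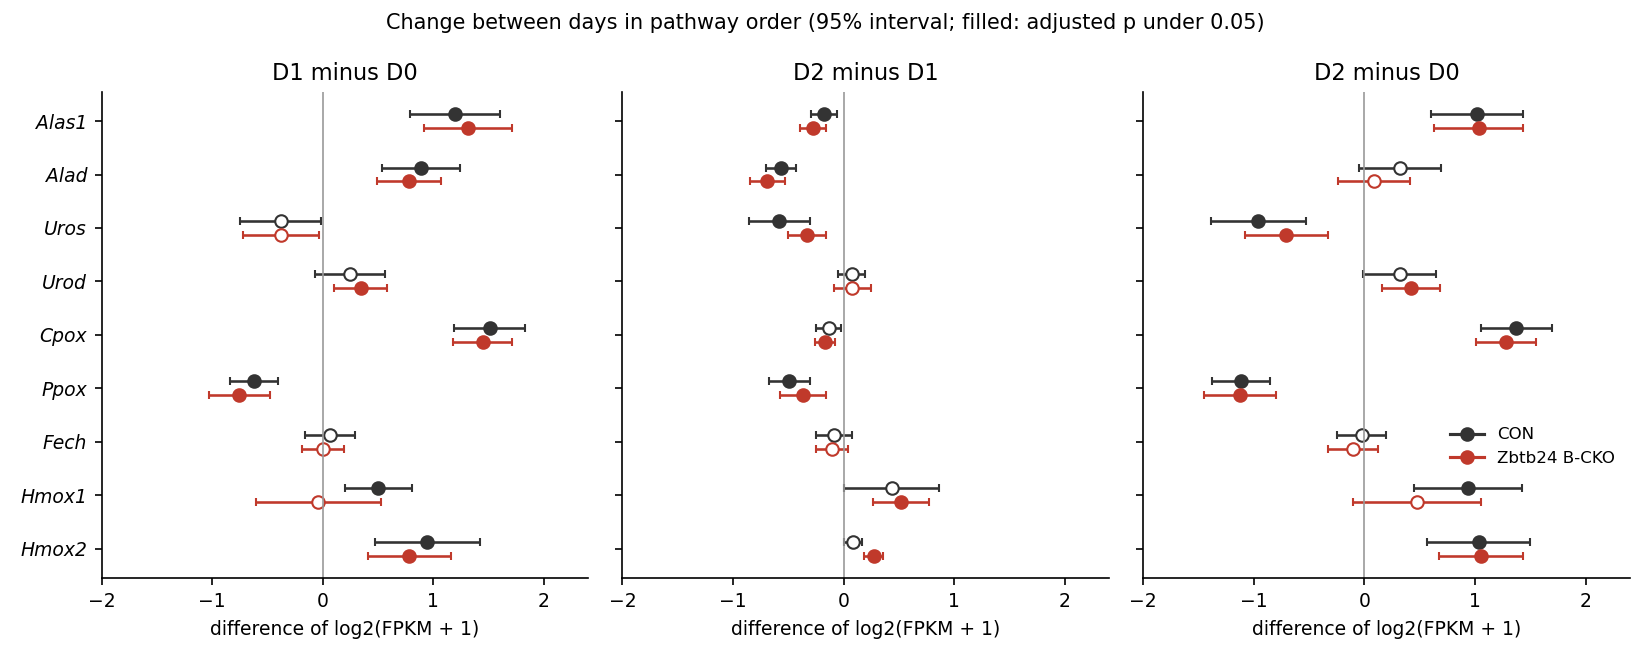
Difference of log2(FPKM + 1) (x axis) between days for the 9 genes in pathway order, with 95% intervals from limma, in CON (dark) and Zbtb24 B-CKO (red). Filled points passed an adjusted p of 0.05. The first day moves Alas1, Alad, Cpox and Hmox2 to the right and Ppox to the left in both genotypes, and the second day moves Alas1, Alad, Uros and Ppox to the left.

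Splenic macrophages and erythroid cells also express heme genes, and markers of both fell after D0, with exceptions. The summed FPKM of 11 macrophage markers was 12.3 to 19.2 in CON at D0, 4.87 to 5.91 at D1 and 6.12 to 7.54 at D2, with 14.8 to 18.2, 4.65 to 5.18 and 5.52 to 6.04 in B-CKO. In CON 9 of the 11 fell from D0 to D1 and 0 rose, and in B-CKO 10 fell. C1qa, C1qc and Vcam1 were listed at 0 in all 12 libraries of D1 and D2. Cd68, a lysosomal protein of macrophages, rose from D1 to D2, from a mean of 3.25 to 5.73 FPKM in CON and from 3.27 to 4.74 FPKM in B-CKO (adjusted p = 0.00544 and 0.00414 in limma). The sum of 9 erythroid markers was 15.3 to 38.1 in CON and 12.2 to 71.7 in B-CKO at D0, and 7.76 to 16.6 in all later libraries, so that the B-CKO ranges overlapped. Of 8 erythroid markers tested in CON, 5 fell from D0 to D2, whereas Hbb-bt, a beta-globin gene, rose from a mean of 2.86 to 9.31 FPKM in CON and from 4.56 to 13.2 FPKM in B-CKO (adjusted p = 0.000491 and 0.00612 in limma). Alas2 did not exceed 0.76 FPKM in any library. From D0 to D1, 9 of 9 T cell markers fell in both genotypes (median log2 differences -0.67 in CON and -0.76 in B-CKO), and of 8 B cell markers 6 fell in CON and 7 in B-CKO (medians -1.08 and -1.26). The part of these shifts in the changes of the heme genes was not tested.

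On the second day no heme gene rose in CON and 4 fell, Alas1, Alad, Uros and Ppox, beside 20.1% and 24.8% of 15178 genes tested in the same directions. Alad, which had risen on the first day, fell to 7.16, 6.74 and 6.37 FPKM at D2 in CON, below all D1 libraries (difference -0.57 ± 0.06, adjusted p = 0.000303 in limma), and its D2 level was 1.18- to 1.58-fold that of D0. Uros fell to 5.37, 4.14 and 5.84 FPKM (-0.58 ± 0.12, adjusted p = 0.00633). Ppox fell further, to 10.61, 12.79 and 12.65 FPKM (-0.49 ± 0.08, adjusted p = 0.00226).

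Alas1 kept most of its rise. At D2 it read 14.05, 15.00 and 13.34 FPKM in CON, all below the D1 libraries, a difference of -0.18 ± 0.05 (adjusted p = 0.0238 in limma). This call was lost with the mouse as a block (0.0506) and without any single library other than CON D2 library 2 (0.0559 to 0.075), and its adjusted p was 0.433 in a fit over all 18 libraries. Cpox at 28.90, 30.65 and 28.39 FPKM also lay below all D1 libraries, with an adjusted p of 0.0542 for -0.14 ± 0.05. That p was 0.0379 without CON D2 library 2.

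Urod (20.23, 22.07 and 22.91 FPKM) and Hmox2 (64.35, 66.85 and 64.52 FPKM) stayed near their D1 levels in CON, with differences of 0.07 ± 0.05 (adjusted p = 0.298 in limma) and 0.09 ± 0.03 (adjusted p = 0.0747). Hmox1 read 4.01, 2.91 and 5.43 FPKM at D2. Its difference from D1 was 0.44 ± 0.18 (adjusted p = 0.0927), and it was 0.62 without CON D2 library 2 (adjusted p = 0.0182). With only genes of at least 1 FPKM tested, the adjusted p of Hmox1 was 0.0241.

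In B-CKO the second day brought 5 calls lower, Alas1, Alad, Uros, Cpox and Ppox, and 2 higher, Hmox1 and Hmox2, beside 24% and 21.7% of 15253 genes tested. Alad fell to 6.75, 5.94 and 5.85 FPKM (-0.69 ± 0.07, adjusted p = 0.000239 in limma), and Alas1 to 14.68, 13.38 and 14.25 FPKM (-0.28 ± 0.05, adjusted p = 0.00376). Cpox fell to 29.04, 29.25 and 27.53 FPKM (-0.16 ± 0.04, adjusted p = 0.0114). Ppox fell to 12.58, 12.76 and 10.21 FPKM (-0.37 ± 0.09, adjusted p = 0.013), with an adjusted p of 0.0542 without B-CKO D1 library 1, and Uros to 5.64, 5.63 and 6.64 FPKM (-0.33 ± 0.07, adjusted p = 0.00963).

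Hmox2 rose in B-CKO on the second day to 70.92, 69.05 and 73.73 FPKM, above all D1 libraries (0.27 ± 0.04, adjusted p = 0.000939 in limma). Hmox1 rose to 2.85, 2.97 and 3.72 FPKM (0.52 ± 0.11, adjusted p = 0.0065). Urod at 20.53, 21.84 and 24.14 FPKM did not pass the test (0.08 ± 0.07, adjusted p = 0.416), nor did Fech at 7.61, 7.33 and 6.82 FPKM (-0.10 ± 0.06, adjusted p = 0.205). In a fit that shared 1 spread over all 18 libraries, 2 of these 7 calls were made, those of Alad and Ppox.

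Over both days together, CON had 4 heme genes higher (Alas1, Cpox, Hmox1 and Hmox2) and 2 lower (Uros and Ppox), beside 26.5% and 30.3% of 15584 genes tested. The largest D2 to D0 ratios of means in CON were 2.71 for Cpox, 2.53 for Hmox1, 2.15 for Alas1 and 2.03 for Hmox2, and the smallest were 0.442 for Ppox and 0.468 for Uros. Their log2 differences were 1.38 ± 0.13 for Cpox, 1.02 ± 0.17 for Alas1, 1.03 ± 0.19 for Hmox2, 0.94 ± 0.20 for Hmox1, -1.12 ± 0.11 for Ppox and -0.96 ± 0.18 for Uros (adjusted p between 0.000206 and 0.00716 in limma). All 3 Alad libraries at D2 lay above all 3 at D0, with a difference of 0.32 ± 0.15 (adjusted p = 0.121) that passed in a fit over all 18 libraries (adjusted p = 0.0295). Urod had 0.32 ± 0.14 (adjusted p = 0.0914), and 0.47 (adjusted p = 0.00435) without CON D0 library 1.

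In B-CKO, Alas1, Urod, Cpox and Hmox2 were higher at D2 than at D0 and Uros and Ppox lower, beside 27% and 30.7% of 15695 genes tested. The changes were 1.28 ± 0.11 for Cpox, 1.05 ± 0.16 for Hmox2, 1.03 ± 0.17 for Alas1, 0.42 ± 0.11 for Urod, -0.71 ± 0.16 for Uros and -1.13 ± 0.14 for Ppox (adjusted p between 0.000128 and 0.0144 in limma). The adjusted p of Urod was 0.0553 without B-CKO D2 library 3 and 0.124 after rescaling to TPM. Hmox1 changed by 0.48 ± 0.24 (adjusted p = 0.136), and by 0.71 (adjusted p = 0.0248) without B-CKO D0 library 3, which had the highest Hmox1 value of that group. Alad was at 1.07-fold and Fech at 0.922-fold of the D0 mean, with adjusted p of 0.614 and 0.391. After rescaling to TPM, Fech had a difference of -0.32 (adjusted p = 0.0496).

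Placed along the pathway in CON, the mitochondrial enzymes Alas1 and Cpox rose over the first day, Ppox fell and Fech was level. Of the cytosolic ones, Alad rose and then fell back, Uros fell on the second day, and Urod passed no test. Alas2, the erythroid synthase, is not among the 9 genes and was called lower in CON at a mean of 0.3 FPKM at D0 and 0.0933 FPKM at D1.

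Hmox1 made up a small share of heme oxygenase mRNA throughout. Its share of the summed Hmox1 and Hmox2 FPKM was 4.07%, 3.68% and 7.71% in the CON libraries at D0, 4.76%, 3.57% and 4.41% at D1 and 5.87%, 4.17% and 7.76% at D2. The B-CKO shares were 2.6%, 5.78% and 10.3% at D0, 2.81%, 3.6% and 3.03% at D1 and 3.86%, 4.12% and 4.8% at D2. Library 3 was the highest on D0 and D2 in both genotypes, and the groups overlapped in all comparisons but B-CKO D2 with D1. That comparison had an exact permutation p of 0.1 (two-sided, adjusted p = 0.6 over 9 comparisons), the smallest that 3 against 3 libraries allow. The share was 3.15% ± 0.41 (SD, n = 3) in B-CKO at D1 against 4.25% ± 0.61 in CON (exact permutation p = 0.2, adjusted p = 0.6).

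**Figure D3:**
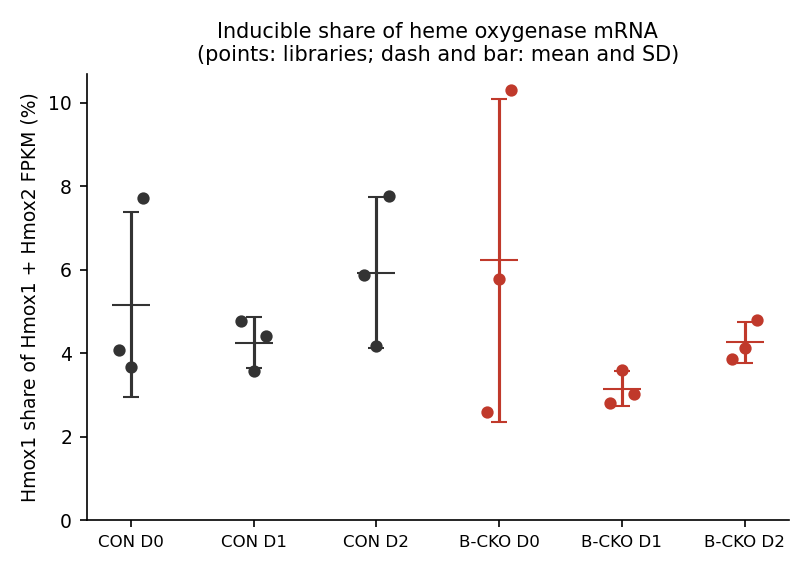
Share of Hmox1 in the summed FPKM of Hmox1 and Hmox2 (y axis, percent, from 0) in the 18 libraries, grouped by genotype and day, with the mean (dash) and SD (bar) of 3 libraries. Every library lies between 2.6% and 10.3%, and the widest spread is that of B-CKO at D0.

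Between genotypes, no heme gene passed the test on any day. Limma called 0% of 15641 genes at D0, 0.0993% of 15104 genes at D1 and 0.046% of 15210 genes at D2, and 0 of the 9 on each day. At an unadjusted p under 0.05 there were 0, 3 and 1 of the 9, beside 313, 2463 and 1172 of all genes. The median difference of the 9 was 0.06, -0.01 and -0.002 on the log2 scale at D0, D1 and D2.

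At D0 the CON and B-CKO libraries of all 9 genes overlapped (the groups did not overlap in 3.87% of all genes), and the differences lay between -0.07 for Urod and 0.19 for Hmox1. Their 95% intervals were wide, reaching -0.59 to 0.56 for Alas1, -0.36 to 0.48 for Cpox and -0.40 to 0.79 for Hmox1. These intervals are from the fit without pairing. Between same-numbered libraries, Alad and Fech were higher in B-CKO in 3 of 3 pairs and Urod lower in 3 of 3 (0.878, 0.999 and 0.968 of CON). With the number as a block, the SE fell from 0.19 to 0.08 for Alad, from 0.11 to 0.06 for Fech and from 0.16 to 0.06 for Urod, and the adjusted p of each was 0.918 in limma.

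At D1, where the replicates were closest, 3 of the 9 genes did not overlap between genotypes, beside 20.1% of all genes. Hmox1 was lower in B-CKO, at 1.69, 2.16 and 1.88 FPKM against 2.99, 2.35 and 2.81 FPKM, with a difference of -0.35 (95% interval -0.57 to -0.13, unadjusted p = 0.00711, adjusted p = 0.147 in limma). Across the alternatives its adjusted p ran from 0.0561, when only genes of at least 1 FPKM were tested, to 1. Alas1 was higher in B-CKO by 0.10 (interval 0.02 to 0.18, adjusted p = 0.223), a 1.08-fold ratio of means. Ppox was lower by 0.14 (interval -0.27 to -0.02, adjusted p = 0.234).

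The other 6 genes overlapped at D1, and their intervals were narrow. That of Cpox ran from -0.10 to 0.09, that of Alad from -0.08 to 0.11, that of Urod from -0.09 to 0.13, that of Fech from -0.11 to 0.17, that of Uros from -0.19 to 0.08 and that of Hmox2 from -0.13 to 0.01 on the log2 scale. At D2 only Hmox2 did not overlap, beside 11.1% of all genes. It read 70.92, 69.05 and 73.73 FPKM in B-CKO against 64.35, 66.85 and 64.52 FPKM in CON, a difference of 0.12 (interval 0.03 to 0.22, unadjusted p = 0.0152, adjusted p = 0.467 in limma). Hmox1 differed by -0.27 at D2 (interval -0.71 to 0.17), and the other differences at D2 lay between -0.11 for Alad and 0.20 for Uros. Of 9 T cell markers 0 were called between genotypes at D1 or D2, with median differences of 0.04 and 0.004, and of the 8 and 7 macrophage markers tested on these days 0 were called, with medians of 0.01 and -0.02.

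**Figure D4:**
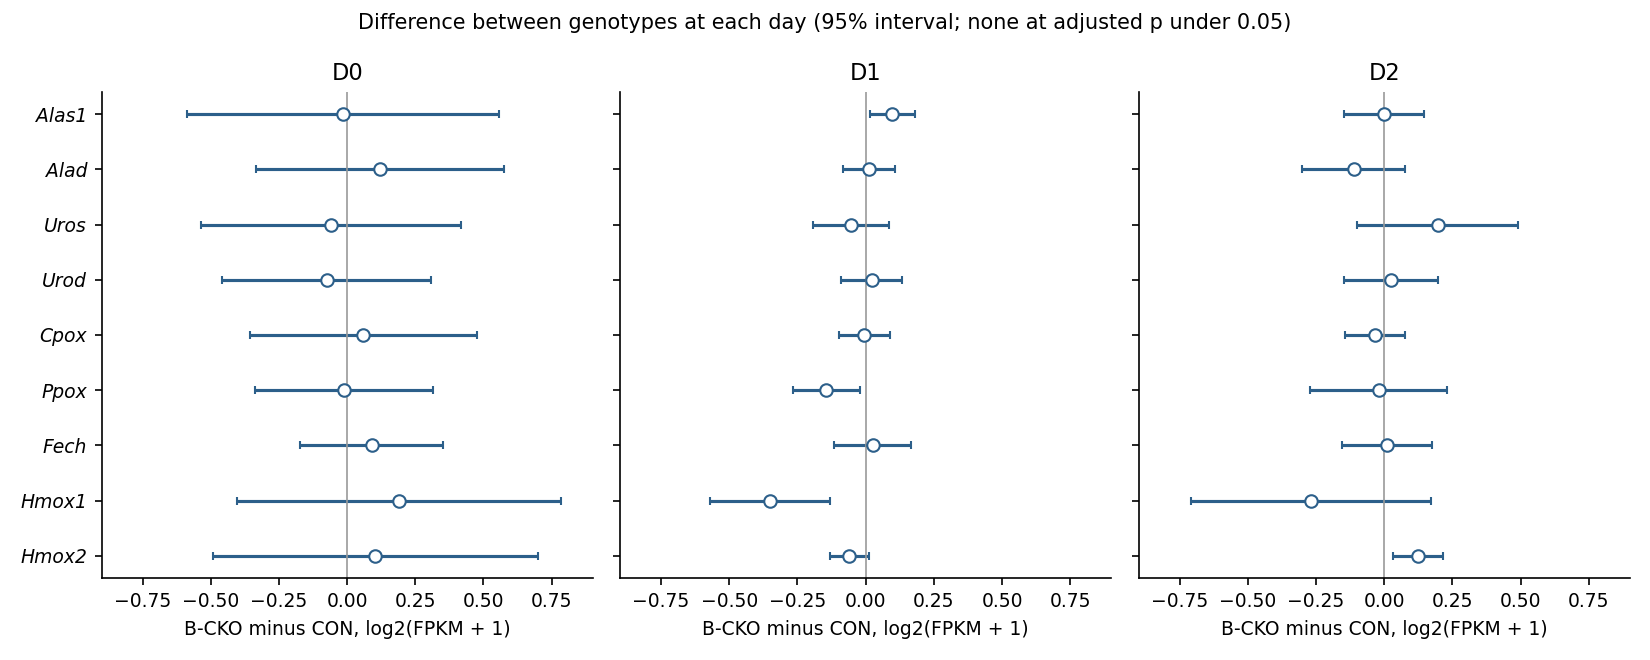
Difference of log2(FPKM + 1) between Zbtb24 B-CKO and CON (x axis) for the 9 genes at D0, D1 and D2, with 95% intervals from limma over 3 against 3 libraries. No point passed an adjusted p of 0.05, the intervals are widest at D0, and those of Hmox1, Alas1 and Ppox at D1 and of Hmox2 at D2 do not reach 0.

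Whether the kinetics differed between genotypes was tested as an interaction, with the change in B-CKO minus that in CON over 12 libraries. Limma called 0% of genes for D1 minus D0 (16182 genes), 0% for D2 minus D1 (15844) and 0% for D2 minus D0 (16257), and at an unadjusted p under 0.05 there were 467, 1158 and 422 genes, of which 0, 1 and 0 were heme genes. The heme gene was Hmox2, whose change from D1 to D2 exceeded that in CON by 0.18 ± 0.05 (unadjusted p = 0.00252, adjusted p = 0.512). For Hmox1 the difference between the genotypes in the change from D0 to D1 was -0.54 ± 0.28 (interval -1.17 to 0.09, adjusted p = 1). Hmox1 thus passed the test over the first day in CON and not in B-CKO, but the difference between the genotypes did not.

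The genes around the pathway moved as follows on the first day in CON, each list being given by its counts beside the shares of all genes above. Of 12 genes for mitochondrial import and handling of heme precursors, 7 rose and 3 fell, with a median log2 change of 0.78 against -0.02 for all genes tested. Slc25a39, a mitochondrial glutathione carrier, rose by 1.67 and Suclg2, a subunit of the enzyme that makes succinyl-CoA, by 1.17, while Slc25a37, mitoferrin 1, the iron importer of the inner membrane, fell by 1.79. All 3 genes that fit heme into cytochromes rose, with 1.10 for Cox10, 0.83 for Cox15 and 0.60 for Hccs. In B-CKO the counts were 8 and 2 of 12, and 3 of 3.

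Of 3 genes that act with or after the oxygenases (median 0.65), Blvra, a biliverdin reductase, rose by 1.24 and Por, which passes electrons to heme oxygenase, by 0.65, whereas Blvrb fell by 0.47. Of 8 genes of heme transport and binding, 4 rose and 0 fell (median 0.19). Those with the lowest adjusted p were Abcg2 (0.68), an exporter of heme and porphyrins, Pgrmc2 (0.93), a heme chaperone, and Slc48a1 (0.33), a lysosomal heme transporter. Of 8 iron supply genes, 5 rose and 0 fell (median 0.56), among them Tfrc, the transferrin receptor (1.21), and Nfs1, the cysteine desulfurase of iron-sulfur clusters (1.07).

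Of 9 heme sensing factors and their partners, 2 rose and 5 fell in CON (median -0.46). Bach1, the heme-bound repressor of Hmox1, went from 6.75, 7.87 and 13.10 FPKM at D0 to 2.14, 2.35 and 1.87 FPKM at D1 (-1.67 ± 0.23, adjusted p = 0.0011 in limma), and its partner Mafk fell by 2.28. The heme receptor gene Nr1d2 fell by 2.17. Of 9 target genes of BACH1 and NRF2, 4 rose and 2 fell (median 0.155), with Txnrd1 (thioredoxin reductase) at 2.01, Gclm (a subunit of glutamate-cysteine ligase) at 1.95 and Nqo1 (a quinone reductase) at 1.30. Beside these, Hmox1, a target of the same factors, rose by 0.50. In B-CKO the counts were 2 and 4 of 9 sensing factors, 4 and 2 of 9 target genes, 6 and 0 of 8 iron supply genes and 3 and 1 of the 7 transport genes tested. No gene of these lists passed the test between genotypes on any day.

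**Figure D5:**
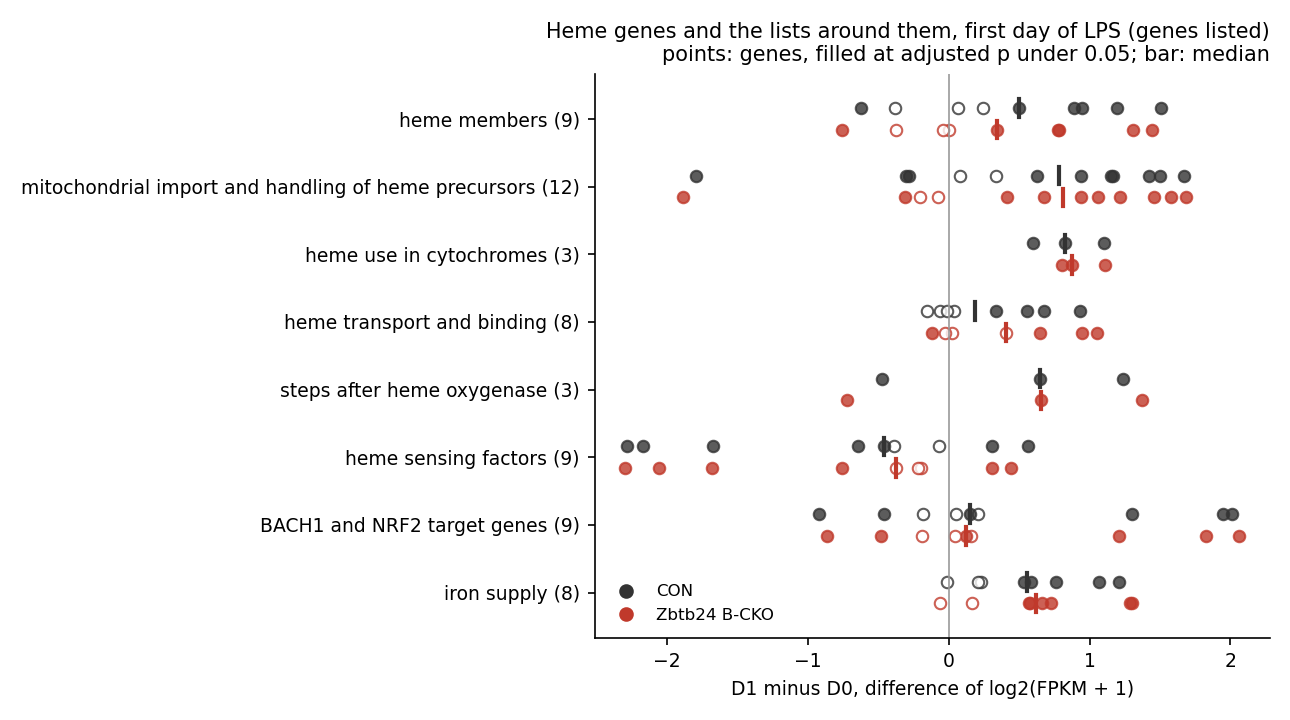
Difference of log2(FPKM + 1) between D1 and D0 (x axis) for every gene of the heme list and of 7 lists around it, in CON (dark) and Zbtb24 B-CKO (red), with filled points at an adjusted p under 0.05 and a bar at each list's median. The 3 genes of heme use in cytochromes all lie to the right, and the medians of the heme sensing factors lie to the left in both genotypes.

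The profile of each gene over the 18 libraries was compared with those of 9996 genes of at least 1 FPKM on average by Pearson's r of log2(FPKM + 1), as a description in which the 6 groups supply most of the variation. Alas1 was most like Cox15 (r = 0.9947), the heme A synthase, then Msto1 and Blvra (both 0.9924). Cpox was most like Nudcd1 and Tufm (both 0.9959), the latter the mitochondrial translation elongation factor, and Actl6a (0.9949). Hmox2 was nearest to Sugt1 (0.9904), Nfkbia and Pop5 (both 0.9871), and Alad to Aen (0.9851), Ddx39b (0.9807) and Gtf3c6 (0.9795). Ppox was nearest to Angel2 (0.9829), Rabggta (0.9828) and Taz (0.9808).

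The remaining genes had looser neighbours. Uros was most like Borcs8 (0.9484), Rrm2b (0.9453) and Alg1 (0.9391), and Urod was most like Homez (0.9458), Slc25a14 (0.9444) and Amacr (0.9382). Hmox1 was nearest to Slc2a6 (0.8502), Glipr1 (0.8425) and Cdkn1a (0.8328). Fech had no close neighbour, the highest being Top3a at 0.7232, followed by Lamc1 (0.7037) and Erc1 (0.6967). Among the 9 themselves, over the same 18 libraries, Alas1 and Cpox had the highest r (0.968), followed by Cpox with Hmox2 (0.938), and Ppox ran opposite to Hmox2 (-0.872) and Cpox (-0.839).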

How the data were processed

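FPKM values per gene, deposited by the authors as 1 table over the 18 libraries, were made from reads mapped to mm10. The study's methods name bowtie2, Cufflinks and RSEM, and the labels also name BWA. The values are not counts, and absolute depth is unknown because the table gives no counts. Gene IDs were matched to RefSeq symbols (16512 of 16545). The 9 heme genes and the lists of surrounding genes were chosen with earlier results of these data known.

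Groups of 3 libraries were compared on log2(FPKM + 1) with limma 3.58.1 (lmFit and eBayes with a mean-variance trend) in R 4.3.3, after genes at 0 in all libraries compared were left out, with Benjamini-Hochberg adjustment over all genes tested and a threshold of 0.05. Each fit held only the groups it compared. The fits were tested on simulated data. Named are all 9 members and, from each list, the 3 genes with the lowest adjusted p for D1 minus D0 in CON, any list gene called between genotypes, and the 3 genes with the highest Pearson r to each member. Alas2 and the genes overlapping members were named beside the results they touch. Some genes that this rule names are not reported here. Shares were compared by exact permutation over libraries with SciPy 1.17.1.

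The study's methods state 1 mouse per replicate, so a library's number was taken to mark its mouse within a genotype. Deviations of same-numbered libraries from their group means, over days of 1 genotype, correlated at -0.0873 to 0.187. Between genotypes they correlated at 0.468 to 0.854 at D0, 0.0907 to 0.2 at D1 and -0.0376 to 0.23 at D2. Alternatives were a pseudocount of 0.1, a mean of at least 1 FPKM, no filter, TPM, median ratio scaling, the replicate block, all 18 libraries in 1 fit, and leaving out libraries. The replicate block with the filter of 1 FPKM was chosen after seeing the data.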

Additional observations from a re-analysis of the deposited data

How the results depend on the processing

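The count of members called over time was within 1.5 times the reported one in all settings but these. In 1 fit over all 18 libraries, 2 members rather than 7 were called for B-CKO D2 minus D1. Leaving out libraries gave 2 to 6 members for CON D2 minus D1 (4 with all libraries), 3 to 7 for CON D2 minus D0 (6) and 3 to 7 for B-CKO D2 minus D1 (7). With the replicate block, which pairs libraries by mouse, 7, 3 and 6 members were called in CON (D1 minus D0, D2 minus D1, D2 minus D0) against 6, 4 and 6 without it, and 5, 7 and 6 in B-CKO against 6, 7 and 6. It changed the call of Uros and Alas1 in CON and Urod in B-CKO, as given beside them, and no other call over time. Between genotypes and in the interactions 0 members were called under every alternative run. With only genes of at least 1 FPKM tested, limma called 388 genes between genotypes at D1, against 15, and 29 at D2, against 7, none a member. The cause of these shifts was not tested.

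Signs turned only for differences that passed no test. Over time these were Fech after rescaling to TPM (CON D1 minus D0 -0.087, B-CKO D1 minus D0 -0.156) and with median ratio scaling (CON D2 minus D0 0.0227), and Alad in B-CKO D2 minus D0 after rescaling to TPM (-0.108). Between genotypes they were, with median ratio scaling, Ppox at D0 (0.00365), Cpox at D1 (0.0152) and Alas1 at D2 (0.00659), and, with TPM, Alad at D1 (-0.000113) and Fech at D2 (-0.0115). Leaving out libraries over time gave -0.0604 to 0.0114 for Fech in CON D2 minus D0, -0.0472 to 0.0348 for Fech and -0.279 to 0.194 for Hmox1 in B-CKO D1 minus D0, and -0.0189 to 0.191 for Alad in B-CKO D2 minus D0. For B-CKO minus CON at D0 it gave -0.17 to 0.169 for Alas1, -0.0328 to 0.227 for Alad, -0.214 to 0.0682 for Uros, -0.17 to 0.0714 for Urod, -0.0582 to 0.191 for Cpox, -0.0885 to 0.111 for Ppox, -0.0387 to 0.451 for Hmox1 and -0.12 to 0.276 for Hmox2. At D1 it gave -0.00924 to 0.0313 for Alad, -0.0978 to 0.000424 for Uros, -0.0232 to 0.0556 for Urod, -0.041 to 0.047 for Cpox and -0.0322 to 0.0722 for Fech. At D2 it gave -0.0474 to 0.074 for Alas1, -0.0343 to 0.0775 for Urod, -0.144 to 0.111 for Ppox and -0.0559 to 0.0695 for Fech. The difference in the Hmox1 share ranged from -1.64 to 0.374 percentage points for CON D1 minus D0, -0.137 to 2.06 for CON D2 minus D0, -3.77 to 0.0729 for B-CKO D2 minus D0 and -0.965 to 2.88 between genotypes at D0.

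Without the libraries numbered 2, adjusted p for CON D2 minus D0 was 0.0558 for Alas1, 0.0582 for Uros and 0.0559 for Hmox2 in limma. Without those numbered 1 it was 0.0614 for Hmox1 in that comparison, 0.083 for Hmox1 in CON D1 minus D0 and 0.0676 for Uros in CON D2 minus D1. Calls gained in CON were Uros for D1 minus D0 with a mean of at least 1 FPKM (0.0449) and in 1 fit over all 18 libraries (0.0379), Cpox for D2 minus D1 with TPM (0.0358) and with a mean of at least 1 FPKM (0.0382), and Hmox2 for D2 minus D1 with median ratio scaling (0.0371). For CON D2 minus D0 they were Urod (0.0198) and Alad (0.0295) over all 18 libraries, and Urod with median ratio scaling (0.0227). Uros in B-CKO D1 minus D0 was called with these 3 settings at 0.0336, 0.0391 and 0.0376, in the order of the filter, all 18 libraries and median ratio scaling. Small differences at D0 were not detectable with 3 libraries per group in the fit without pairing, and the replicate block, which lowered the SE of all 9 members between genotypes at D0, called 0 of them.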
